A study of Mus musculus with 24 samples.

Results

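The m6A peaks of 9 genes that read or erase m6A were described in mouse kidney: the YTH readers Ythdf1, Ythdf2, Ythdf3, Ythdc1 and Ythdc2, the erasers Fto and Alkbh5, and the readers Igf2bp2 and Igf2bp3. A peak was assigned to a gene when it overlapped an exon of that gene on the same strand in the GRCm38 annotation. Of the 9 genes, 8 had a peak in at least 1 kidney and Igf2bp3 had none. Their 103 peaks, of 91013 in all lists, formed 16 of 16801 loci, a locus being the joined stretch of peaks from any kidneys sharing 1 bp or more.

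Kidneys came from male C57BL/6 mice aged 8 weeks, 4 in each of 3 groups, 12 in all. Control mice received daily saline and no cisplatin. Mice of the injury group (IG) received the same saline for 14 days and then intravenous cisplatin at 20 mg/kg, a platinum drug that damages kidney tubules. Mice of the treatment group (TG) received intraperitoneal berberine, a plant alkaloid, at 20 mg/kg per day for those 14 days and then the same cisplatin. Kidneys were taken 72 h after cisplatin. Injury against control (IvC) asks how the peaks differed after cisplatin, and treatment against injury (TvI) asks how they differed when berberine came first. No group received berberine alone, and whole kidney was used, so cell types were mixed.

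MeRIP-seq enriches fragments of about 100 nt of RNA with an antibody against m6A. Each list gives where a peak lies, its strand and its score, which is -10 times the log10 of the peak's p-value and starts at 13.02 to 13.04 in the 12 lists. Read counts are not part of the lists. The depth of a kidney is therefore unknown, and a kidney without a listed peak may have a peak below the calling threshold. RNA levels were not analysed here, and fewer methylated bases, less RNA of the gene and fewer cells of a type that express it cannot be told apart. The 4 control lists hold 8531 to 9579 peaks, the IG lists 6745 to 8357 and the TG lists 5901 to 6753. Scores were therefore also given as percentiles, the rank of a peak among all peaks of its own kidney, with 0 for a kidney that lists no peak there. Of 24 marker genes of kidney cell types, 12 had a peak in any kidney, and the proximal tubule genes Lrp2, Slc34a1 and Slc5a2 had none, so a list of m6A peaks checks the tissue only in part. Of 5 tubular injury genes, Havcr1 had a peak in 0 control, 4 IG and 3 TG kidneys and Sox9 in 0, 4 and 4, while Lcn2, Krt20 and Cdkn1a had none in any kidney. Markers of other cells differed between groups as well, with a peak in 1 control, 4 IG and 0 TG kidneys for Slc12a1 of the thick ascending limb, in 1, 4 and 2 for Nphs1 of podocytes and in 4, 3 and 1 for Cd74 of immune cells. The part of cell types in the values below was not tested.

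m6A is a methyl group on adenosine inside mRNA. It is placed by a methyltransferase complex mostly at the motif RRACH (R is A or G, and H is A, C or T), removed by the demethylases FTO and ALKBH5 and bound by reader proteins. The YTHDF proteins are cytoplasmic readers linked to translation and decay of the bound mRNA. YTHDC1 is a nuclear reader linked to splicing and export, YTHDC2 carries a helicase domain and is known from meiosis, and the IGF2BP proteins are linked to stability of bound mRNA. The transcripts of these genes can themselves carry m6A.

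All but 2 of the peaks of the 3 Ythdf genes lay on a long coding exon that each of them has before its last exon. The stretch below is shown because it lies in that exon in all 3 genes and holds an RRACH site at the same aligned position. RRACH matches are in capitals, and the sequences are RefSeq GRCm38.p6, 5′ to 3′ on the strand of the gene.
Ythdf1 exon 5, chr2:180912033-180912107, minus strand: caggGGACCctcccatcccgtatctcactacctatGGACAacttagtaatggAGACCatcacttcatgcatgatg
Ythdf2 exon 4, chr4:132205541-132205615, minus strand: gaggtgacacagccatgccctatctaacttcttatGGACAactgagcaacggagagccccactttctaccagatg
Ythdf3 exon 5, chr3:16203926-16204000, plus strand: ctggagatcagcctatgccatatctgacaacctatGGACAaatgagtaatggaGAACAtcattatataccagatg

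Next are the short Alkbh5 exon that had a peak in control kidneys, a stretch of Ythdc1 exon 4, which had higher scores in IG than in control kidneys, and Ythdc1 exon 15, which had scores that overlapped among all groups. The stretch of exon 4 was chosen because it holds the most RRACH matches, 4 of the 6 in that exon. RRACH matches are again in capitals.
Alkbh5 exon 2, chr11:60547688-60547768, plus strand: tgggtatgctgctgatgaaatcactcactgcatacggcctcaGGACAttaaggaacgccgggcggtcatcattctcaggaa
Ythdc1 exon 4, chr5:86816907-86817057, plus strand: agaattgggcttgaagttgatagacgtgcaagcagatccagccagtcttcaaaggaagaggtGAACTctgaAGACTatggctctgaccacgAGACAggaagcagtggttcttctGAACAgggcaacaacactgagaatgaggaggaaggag
Ythdc1 exon 15, chr5:86833508-86833642, plus strand: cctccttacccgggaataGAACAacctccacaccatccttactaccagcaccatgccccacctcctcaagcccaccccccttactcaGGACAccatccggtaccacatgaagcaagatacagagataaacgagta

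The 16 loci were spread unevenly over the genes. Ythdc1 held 6 of them, and Ythdf1, Ythdf3 and Fto held 2 each. Ythdf2, Ythdc2, Alkbh5 and Igf2bp2 held 1 each. Peaks in all 12 kidneys were found at 5 of the 16 loci (31.25%), compared with 2420 of all 16801 loci (14.4%). Those 5 were Ythdf2 exon 4 and Ythdc1 exons 4, 5, 15 and 16. The borders of 90 of the 103 peaks (87.4%) were exactly those of an annotated exon, compared with 64.7% of all peaks, so within such an exon the lists do not place the methylated base.

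**Figure D1:**
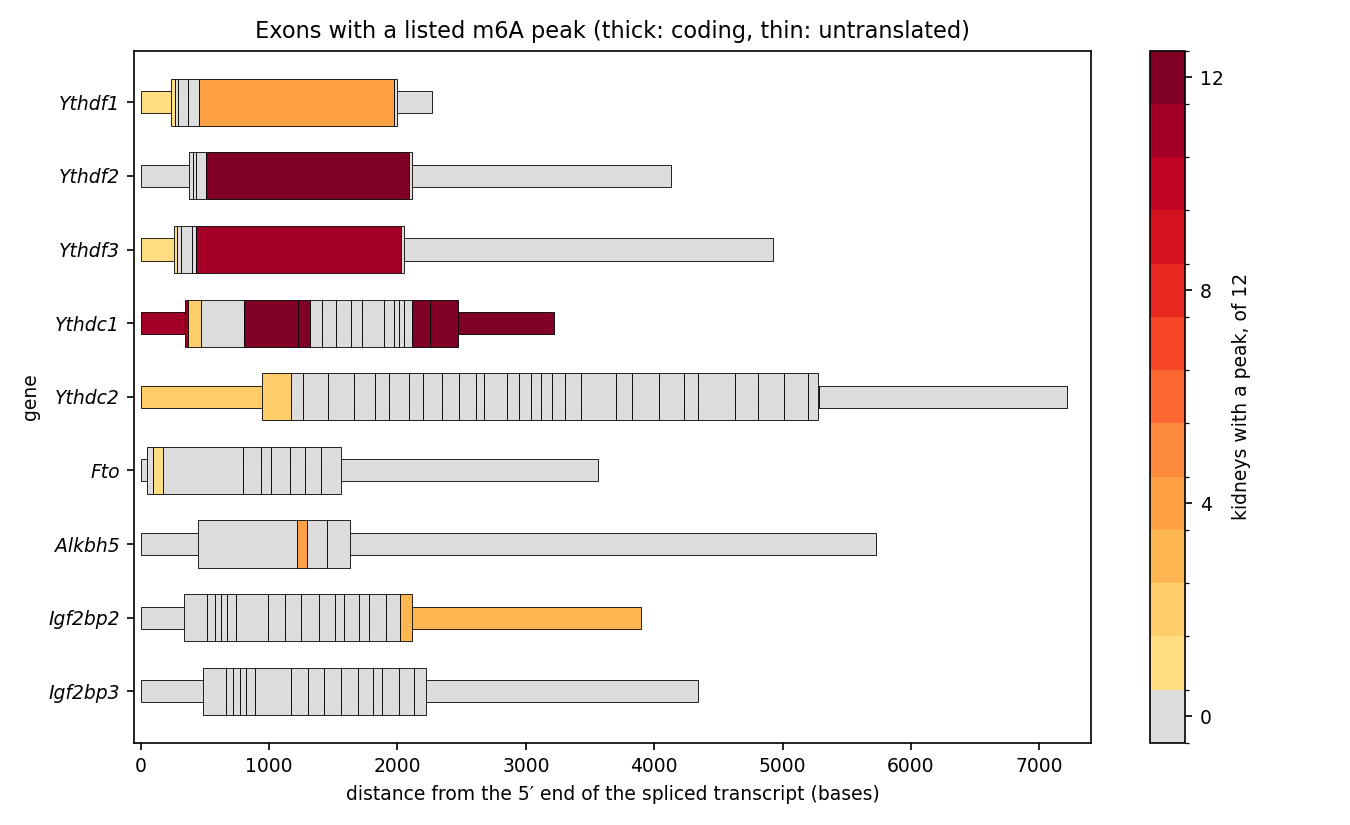
Exons of the spliced transcript of each of the 9 genes, drawn to scale in bases from the 5′ end, with coding parts thick and untranslated parts thin. Colour gives the number of kidneys, of 12, with a peak on the exon, and whole exons are coloured. The long coding exons of Ythdf2 and Ythdf3 and 5 exons of Ythdc1 are darkest, while Igf2bp3 has no coloured exon; a peak on an exon of a shorter Fto transcript is not drawn.

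Per kidney, the 9 genes together had 10, 9, 12 and 10 peaks in the controls, 7, 9, 6 and 8 in IG and 8 in each of the 4 TG kidneys. The number of the 9 genes with a peak was 5 to 7 in control kidneys, 3 or 4 in IG kidneys and 4 in each TG kidney. All peaks were fewer as well, with means of 8952 ± 458 (SD, n = 4) in controls, 7422 ± 687 in IG and 6380 ± 375 in TG.

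In IvC, Ythdf1 and Alkbh5 had a coding exon with a peak in 4 of 4 control kidneys and 0 of 4 IG kidneys, Ythdf2 exon 4 scored lower in IG, and Ythdc1 exon 4 scored higher in IG. Of the 16 loci, 15 had a peak in a control or IG kidney, 6 of them only in controls, 2 only in IG and 7 in both. A locus was called by presence when it had a peak in 4 of 4 kidneys of one group and 0 of 4 of the other, which is the sole pattern that takes Fisher's exact test (two-sided) under 0.05. By this rule 2 of the 15 loci were lower in IG, beside 2.73% of all 16061 loci tested, and 0 were higher, beside 1.35%. A locus was called by percentile when the 4 kidneys of one group did not overlap with those of the other, which gives the smallest two-sided p of the exact permutation test over 70 arrangements. By this rule 3 of the 15 loci were lower, beside 8.84% of all loci, and 1 was higher, beside 3.87%. The median difference in mean percentile was -3.13 over the 15 loci and -2.95 over all loci. When p-values were adjusted over every locus tested (Benjamini-Hochberg), none of any gene passed 0.05 in either comparison (0 loci). In IvC the lowest adjusted p of these exact tests was 0.225 for percentiles and 0.701 for presence, so the calls below rest on unadjusted p-values.

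**Figure D2:**
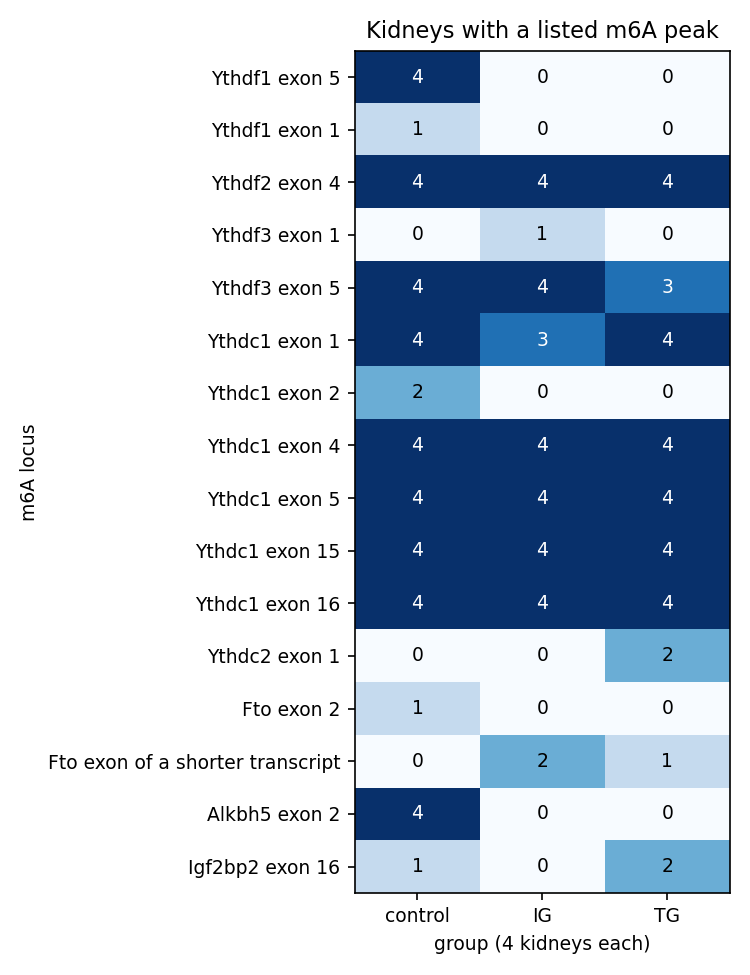
Number of kidneys with a listed peak at each of the 16 loci (rows) in each group of 4 (columns), printed in each cell with darker blue for more kidneys. Ythdf1 exon 5 and Alkbh5 exon 2 go from 4 in control to 0 in IG and TG, whereas Ythdf2 exon 4 and Ythdc1 exons 4, 5, 15 and 16 have 4 in every group.

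Ythdf1 encodes a cytoplasmic reader linked to translation. Its exon 5 (chr2:180910687-180912207, minus strand), of 1521 bp and coding throughout, is the fifth of 6 exons. Scores in the 4 control kidneys were 73.80, 97.89, 72.58 and 360.87, and neither the 4 IG kidneys nor the 4 TG kidneys had a peak there. The control percentiles ran from 50.3 to 82.6, so these peaks lay in the upper part of the control lists and not at the threshold. The mean percentile was 60.4 ± 15.3 (SD, n = 4) in controls and 0 in IG (p = 0.0286 in the exact permutation test, adjusted p = 0.225). The locus also had a peak in 4 control and 0 IG kidneys when all lists were shortened to the 5901 peaks of highest score. The difference in mean percentile was smaller there, at -40.6 beside -60.4, and was -21.5 when only scores of at least 71.3 were used. Exon 1 of Ythdf1 (chr2:180920684-180920946), which holds the start codon, had a peak only in control kidney 1, with a score of 19.36.

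Ythdf2 encodes the reader that recruits the CCR4-NOT deadenylase to methylated mRNA. Its exon 4 (chr4:132204132-132205715, minus strand), of 1584 coding bp, had a peak in all 12 kidneys. Control scores were 1417.09, 1425.22, 1913.04 and 1603.17, IG scores were 1328.08, 873.62, 298.31 and 1288.34, and TG scores were 717.40, 572.58, 200.40 and 855.64. Every IG and TG score was below every control score, while IG and TG overlapped. The mean percentile was 97.0 ± 0.50 in controls and 90.9 ± 6.65 in IG (difference -6.09, exact permutation p = 0.0286, adjusted p = 0.225). IG kidney 3 had the lowest IG score, and without it the difference was -2.83. In TG the percentiles ran from 75.0 to 91.7, and TvI gave a difference of -3.90 (exact permutation p = 0.457), which was 0.0859 without TG kidney 3 and -7.16 without IG kidney 3.

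Ythdf3 encodes the third YTHDF reader, which is thought to act together with the other two. Its exon 5 (chr3:16203826-16205424, plus strand) has 1599 coding bp. Control scores were 717.13, 248.79, 664.60 and 1177.85, and IG scores were 150.68, 485.42, 475.92 and 67.62. TG kidneys 1, 2 and 4 had scores of 39.92, 20.34 and 58.70, and TG kidney 3 had no peak. Control and IG overlapped, and every TG kidney was below every IG kidney, the nearest being 58.70 in TG and 67.62 in IG. The mean percentile was 89.3 ± 7.48 in controls, 72.6 ± 18.1 in IG and 23.4 ± 19.8 in TG. The IvC difference was -16.7 (exact permutation p = 0.171, adjusted p = 0.578). It was -8.96 without IG kidney 4 and -20.4 without control kidney 2, when the groups no longer overlapped. The TvI difference was -49.1 (exact permutation p = 0.0286, adjusted p = 0.798). Exon 1 of Ythdf3 (chr3:16183183-16183520), with the start codon, had a peak only in IG kidney 2, with a score of 17.99.

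Of the other exons of the 3 genes, only the exons 1 given above had a peak in any kidney, and the last exons, with most of the 3′ UTR, had none.

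**Figure D3:**
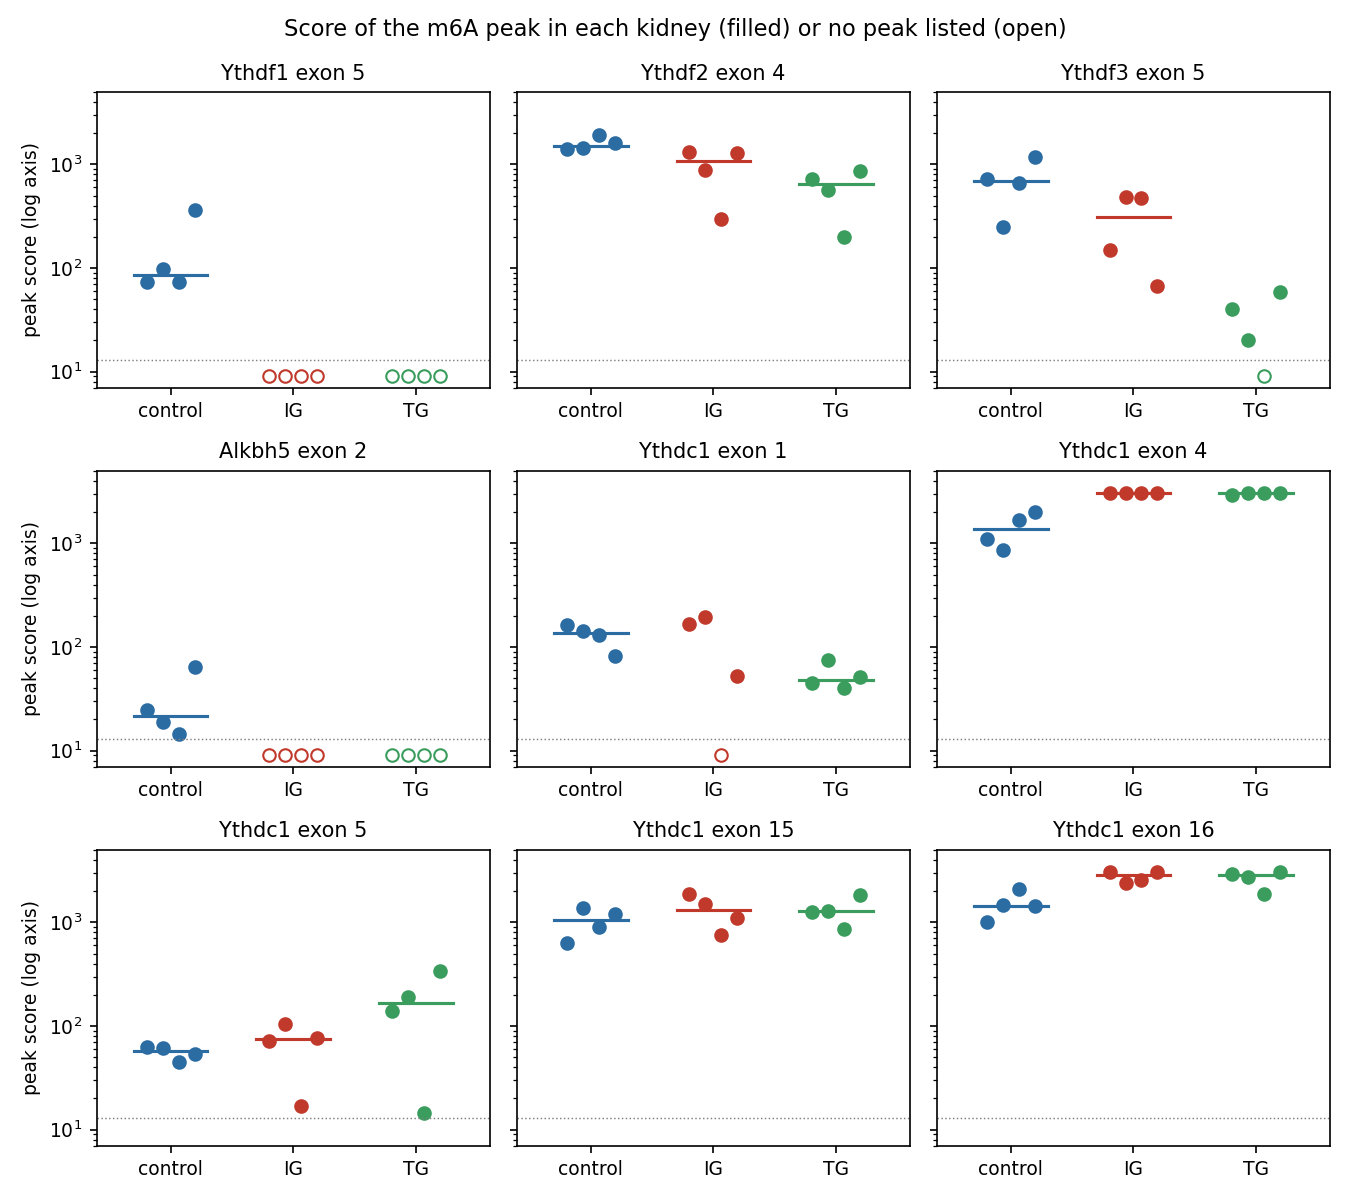
Score of the peak (vertical log axis, -10 times log10 of the p-value) in each of 4 kidneys per group at 9 loci, with open circles below the dotted line at 13 for kidneys with no peak and a bar at the median where all 4 kidneys have one. All controls lie above the 4 IG kidneys for Ythdf1 exon 5, Ythdf2 exon 4 and Alkbh5 exon 2, the 4 IG kidneys lie above the controls for Ythdc1 exons 4 and 16, and all TG kidneys lie below IG for Ythdf3 exon 5.

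Ythdc1 encodes the nuclear YTH reader, and 6 of the 16 exons of its transcript had a peak in at least 1 kidney. Exon 4 (chr5:86816907-86817333, plus strand), of 427 coding bp, had control scores of 1092.49, 871.52, 1693.08 and 1995.65. All 4 IG kidneys had a score of 3100, as did TG kidneys 2, 3 and 4, and TG kidney 1 had 2929.70. Every IG and TG score was above every control score. The value of 3100 recurs as a near-upper limit in each list, with 66 to 116 peaks at it and 4 to 13 above it, so differences among kidneys at that value were not measurable. Peaks of any gene at 3100 numbered 66, 73, 74 and 90 in the control lists and 103, 115, 116 and 99 in the IG lists. In the TG lists they numbered 81, 83, 77 and 109. Every IG list thus held more peaks at this value than any control list. The mean percentile was 96.1 ± 1.79 in controls and 99.2 ± 0.0615 in IG (difference 3.12, exact permutation p = 0.0286, adjusted p = 0.225), and the TvI difference was -0.137, with overlapping groups. Exon 4 and exon 2 of Ythdc1 overlap the long noncoding gene Gm43055 on the same strand, and reads of the 2 genes cannot be told apart there.

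The last exon of Ythdc1, exon 16 (chr5:86835684-86836659), holds the stop codon, 222 coding bases and the 3′ UTR. Control scores were 1003.08, 1467.88, 2101.90 and 1436.71, and IG scores were 3100, 2404.20, 2585.47 and 3100. TG scores were 2953.12, 2731.36, 1872.23 and 3100. The scores of the control and IG kidneys did not overlap, but their percentiles did, with a highest control percentile of 98.1 and a lowest IG percentile of 97.7. The mean percentile difference was 2.06 in IvC (exact permutation p = 0.0571, adjusted p = 0.358) and -0.183 in TvI (exact permutation p = 0.714). With all lists shortened to 5901 peaks, the percentiles of control and IG kidneys did not overlap and the IvC difference was 3.46. The peak ended at base 86836659, the end of the gene, in control kidney 1 and in all IG and TG kidneys, and at bases 86836606, 86836256 and 86836594 in control kidneys 2, 3 and 4.

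Exon 15 of Ythdc1, of 135 coding bp, had control scores of 633.22, 1377.98, 895.43 and 1194.15. IG scores there were 1863.60, 1504.19, 757.97 and 1104.06, and TG scores were 1265.85, 1289.13, 861.97 and 1858.83. Unlike at exon 4, all 3 groups overlapped, with mean percentiles of 94.3 ± 2.30, 94.7 ± 2.26 and 95.2 ± 1.40.

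The other 3 exons of Ythdc1 with a peak had lower scores. Exon 5 (chr5:86820086-86820175), of 90 coding bp, had control scores of 62.11, 60.78, 45.38 and 53.81, IG scores of 71.73, 104.51, 16.76 and 76.76, and TG scores of 138.56, 192.36, 14.59 and 337.60. Kidney 3 was far below the other 3 in both IG and TG, and without it the IG kidneys lay above the controls (difference 11.3 points) and, separately, without TG kidney 3 the TG kidneys lay above IG (difference 32.0 points). With all kidneys the differences were 0.0562 in IvC (exact permutation p = 1) and 14.3 in TvI (exact permutation p = 0.486). Other kidneys left out moved them the other way, with -5.43 in IvC without IG kidney 2. In TvI the difference was 3.08 without IG kidney 3 and 6.08 without TG kidney 4. With lists of 5901 peaks, 3 IG kidneys had the peak and the IvC difference was 20.8 (exact permutation p = 0.171).

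Exon 1 of Ythdc1 (chr5:86804221-86804591), with the start codon, had control scores of 164.21, 144.21, 130.67 and 81.33. IG kidneys 1, 2 and 4 had 167.29, 193.68 and 52.55, and IG kidney 3 had no peak. TG scores were 44.61, 74.54, 40.11 and 51.68, each below every control score. Their percentiles overlapped, with 51.96 in TG kidney 2 and 51.65 in control kidney 4. Control and IG overlapped (exact permutation p = 0.429), as did IG and TG (exact permutation p = 0.886). Exon 2 (chr5:86815629-86815730) had a peak only in control kidneys 3 and 4, with scores of 247.45 and 153.57. Ythdc2 had 1 locus, on chromosome 18 around its start codon, with a peak only in TG kidneys 3 and 4, at scores of 30 and 42.15.

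Both erasers had few and low peaks. Alkbh5 encodes a nuclear m6A demethylase of the AlkB family. Its exon 2 (chr11:60547688-60547768, plus strand), of 81 coding bp, had control scores of 24.55, 18.73, 14.52 and 64.33, with no peak in any IG or TG kidney. The mean percentile was 19.9 ± 18.4 (SD, n = 4) in controls and 0 in IG (exact permutation p = 0.0286, adjusted p = 0.225), and -11.4 was the difference without control kidney 4. In contrast to Ythdf1 exon 5, 3 of the 4 control scores lay close to the lowest listed score of 13.02. When all lists were shortened to 5901 peaks, only 1 control kidney kept a peak at Alkbh5 exon 2. The longest exon of Alkbh5, exon 4 of 4275 bp with the stop codon, had no peak in any kidney.

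Fto encodes the demethylase of the same family that is also linked to body mass. Its exon 2 (chr8:91401807-91401884), of 78 coding bp, had a peak only in control kidney 3, with a score of 18.37. A second Fto locus (chr8:91487497-91487791) lay in the untranslated part of the last exon of a shorter coding transcript, with scores of 21.01 in IG kidney 2, 13.18 in IG kidney 4 and 16 in TG kidney 3. No Fto peak had a percentile or score that separated the groups, and no kidney had both loci.

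Igf2bp2, whose product binds m6A through its KH domains, had 1 locus on its last exon (chr16:22059034-22060885, minus strand) with the stop codon. Scores there were 20.89 in control kidney 3, 13.05 in TG kidney 1 and 18.45 in TG kidney 2, with none in IG. Igf2bp3, a paralogue best known from fetal tissue and tumours, had no peak on any of its exons in any of the 12 kidneys, which at unknown depth does not show that its mRNA is unmethylated.

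Counted per gene, Ythdf1 had 1.25 ± 0.5 peaks per control kidney and 0 per IG kidney, and Alkbh5 had 1 per control kidney and 0 per IG kidney. These 2 genes, of the 7 with a peak in either group, were lower in IG without overlap, beside 4.89% of 7526 genes in that direction. No gene of the 9 was higher in IG without overlap, beside 2.26% of those genes. In TvI none of the 6 genes with a peak in either group was lower or higher without overlap, beside 0.87% and 0.27% of 6666 genes.

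In TvI, the long coding exon of Ythdf3 scored lower in TG than in IG, and no other locus of these genes was called. This call was lost when only scores of at least 71.3 were used, which left a peak in 3 IG and 0 TG kidneys with a difference of -45.5 (exact permutation p = 0.143), and the locus dropped out when a peak was required in all 8 kidneys. A peak in an IG or TG kidney was present at 11 of the 16 loci, 1 of them only in IG, 2 only in TG and 8 in both. By presence 0 were lower in TG, beside 0.449% of all 13357 loci, and 0 were higher, beside 0.225%. By percentile 1 was lower, beside 2.26% of all loci, and 0 were higher, beside 1.32%. An unadjusted p under 0.05 in the exact permutation test needs groups that do not overlap, so it marks the same locus by the same rule. The Fisher test gave no locus of these genes under 0.05. The median difference was -0.183 over the 11 loci and -2.65 over all loci. Ythdf1 exon 5 and Alkbh5 exon 2 had no peak in either group and could not be compared. The 2 comparisons share the IG kidneys, so a chance value in IG acts on both.

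**Figure D4:**
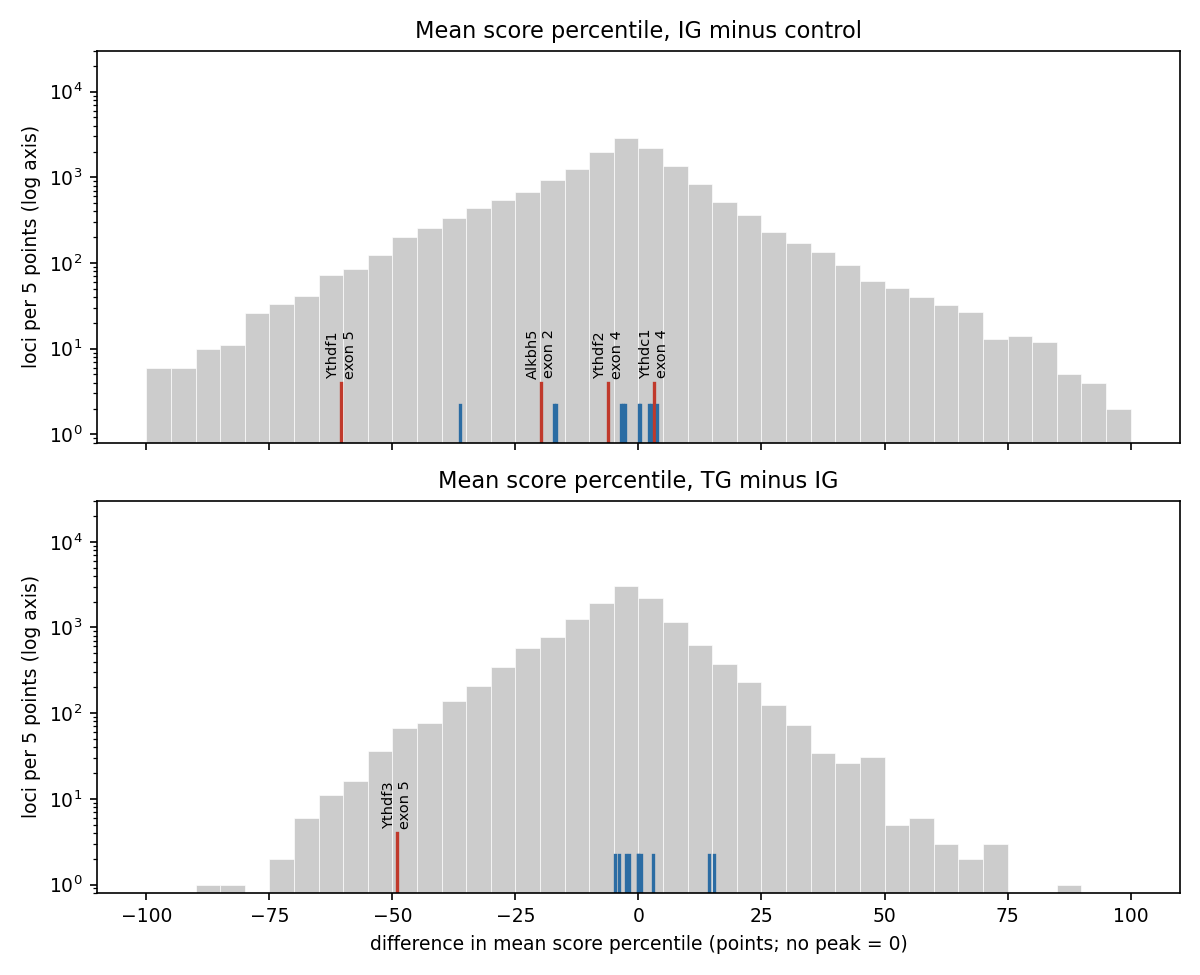
Differences in mean score percentile at all loci (grey histograms in bins of 5 points, log vertical axis) for IvC (top) and TvI (bottom), with ticks for loci of the reader and eraser genes. Red labelled ticks mark loci whose groups do not overlap, which in IvC are Ythdf1 exon 5 at -60.4, Alkbh5 exon 2 at -19.9, Ythdf2 exon 4 at -6.09 and Ythdc1 exon 4 at 3.12, and in TvI Ythdf3 exon 5 at -49.1; blue ticks mark the others.

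Other genes of the pathway were counted in the same way. Of 10 genes of the m6A methyltransferase complex and related methyltransferases, 7 had a peak, at 29 loci in IvC and 27 in TvI. By presence 0 were called in either comparison, where 2.73% of all loci were lower and 1.35% higher in IvC, and 0.449% lower and 0.225% higher in TvI. By percentile 1 of 29 was lower and 1 higher in IvC, where 8.84% and 3.87% of all loci were, and 0 of 27 were lower and 2 higher in TvI, where 2.26% and 1.32% of all loci were. They were, named after their values were seen, 3 loci of Zc3h13, a zinc finger subunit of the complex, and 1 of Wtap, its splicing-factor-associated subunit. At Zc3h13 (chr14:75327544-75328144) control scores were 862.73, 1171.92, 640.18 and 779.33, and IG scores were 2355.50, 2638.92, 1876.14 and 2902.14. At Wtap (chr17:12974160-12975474) control scores were 36.42, 106.77, 101.80 and 25.83, and of the IG kidneys only kidney 3 had a peak, with 23.11. TG kidneys 1, 3 and 4 had scores of 123, 19.9 and 23.03 there. Both other Zc3h13 loci had higher percentiles in TG than in IG, by 18.3 points at chr14:75305789-75305897 and 30.2 points at chr14:75335922-75336074. At the latter the scores overlapped, with 34.39, 54.31 and 29.55 in IG kidneys 2, 3 and 4, none in IG kidney 1, and 76.99, 69.82, 52.05 and 185.71 in TG.

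Of 14 further reported m6A readers, 5 had a peak, at 14 loci in IvC and 14 in TvI, and by presence 0 were called. By percentile 0 were called in IvC, where 8.84% of all loci were lower and 3.87% higher. In TvI 1 was lower by percentile, beside 2.26% of all loci, and 0 were higher, beside 1.32%. The lower locus was on Fmr1 (chrX:68703663-68703772), which encodes an RNA-binding protein, with IG scores of 162.85, 42.43, 102.51 and 43.52 and TG scores of 36.33 in kidney 2 and 25.33 in kidney 4. Of 7 other AlkB homologues, 3 had a peak, at 3 loci in IvC and 2 in TvI. Of 11 genes of the CCR4-NOT complex, 8 had a peak, at 16 loci in IvC and 7 in TvI. By presence or percentile 0 loci of these last 2 lists were called, beside the shares of all loci given above. A peak in all 12 kidneys was present at 11 of the 31 loci of the methyltransferase genes, 4 of the 15 of the further readers, 0 of the 3 of the AlkB homologues and 0 of the 16 of CCR4-NOT genes, beside 14.4% of all loci. The median percentile difference in IvC was -2.58 for the methyltransferase genes, 4.73 for the further readers, -7.04 for the AlkB homologues and -3.17 for CCR4-NOT, beside -2.95 for all loci. In TvI it was -0.897, -6.60, -7.55 and -7.87 in the same order, beside -2.65 for all loci.

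The motif RRACH was searched on the strand of the gene and on the opposite strand within 50 bases to each side of the midpoint of each locus. It was found at 10 of the 16 loci (62.5%, exact 95% binomial interval 35.4 to 84.8%) on the gene strand and at as many on the opposite strand. Of all loci, 80.1% held it on the gene strand and 63.0% on the opposite strand. Over all bases of a locus, 15 of 16 (93.75%) held RRACH, compared with 93.8% of all loci, the exception being Ythdc1 exon 5, whose 90 bases hold it only on the opposite strand. GGACT, which is a form of RRACH, was in 0 of the 16 midpoint windows (exact 95% interval up to 20.6%), compared with 10.3% of all loci, and in 31.25% over all bases, compared with 39.1%. Loci are not independent of each other within a gene, and with whole exons as peaks a midpoint is not a summit.

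Per kb, the 16 loci held 13.7 RRACH matches and 0.602 GGACT matches on the gene strand, compared with 16.1 and 1.15 over all loci. The long exons of Ythdf1, Ythdf2 and Ythdf3 held 26, 24 and 27 RRACH matches, where the median of loci of like length was 23, 24 and 25, and 1 GGACT match each, where that median was 2. Ythdf1 exon 5, with no peak after cisplatin, thus held about as many RRACH letters as Ythdf2 exon 4, with a peak in all kidneys. Alkbh5 exon 2 held 1 match, Ythdc1 exon 4 held 6 and Ythdc1 exon 15 held 2.

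When the 3 long exons were aligned in pairs, identity was 70.5% between Ythdf1 and Ythdf2, 70.6% between Ythdf1 and Ythdf3 and 71.6% between Ythdf2 and Ythdf3. The longest identical runs were 22, 17 and 17 bases in the same order, shorter than the sequenced reads. RRACH matches stood at the same aligned position at 10, 8 and 12 places, and at 7 places in all 3 genes, 1 of which is the GGACA in the middle of the Ythdf stretch printed above.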

How the data were processed

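m6A peaks of 12 kidneys (4 control, 4 IG and 4 TG, grouped by the sample titles) were analysed. The submitters' processing notes name Cutadapt 1.9.3, HISAT2 2.0.4 and mm10. Per the study's methods, the authors called peaks with MACS and kept those on mRNA exons. The lists used here hold the peaks of each kidney separately. The MACS version and control library are not given in the sources used here. The score was deposited by the authors as the negative log10 of the p-value times 10 for each peak. Depth is unknown, so precision rests on 4 kidneys per group, each from its own mouse.

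Peaks were joined into loci at an overlap of at least 1 bp regardless of strand, and exons were those of GENCODE M21 (GRCm38). Each gene was drawn and its exons numbered by the coding transcript whose exons equal most of the listed peaks. Presence was compared with two-sided Fisher's exact tests, score percentiles and peaks per gene with two-sided exact permutation tests over 70 arrangements of 8 kidneys (smallest p 0.0286), all adjusted by the Benjamini-Hochberg method over all loci or genes. Motifs were searched in the GRCm38.p6 sequence, and loci of like length were those within 10% of the length. Both kinds of call were first run on simulated scores that were not ranked into percentiles. The planted differences met the rules by construction, so their recovery checked only the code.

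All 9 genes and their loci are named, and genes of the fixed pathway lists only where called. The members and lists were chosen with earlier results of these data known. Alternatives were equal list lengths, a score minimum of 71.3 (the median over the lists), a reciprocal overlap of at least 50%, log2 scores, restriction to loci found in all 8 kidneys compared, the replicate number as a block, leaving out each kidney, RefSeq exons, either strand and motifs over all bases. The input libraries and RNA-seq were not analysed here. Computations used scipy 1.17.1, numpy 2.4.6, Biopython 1.88, pysam 0.24.0 and matplotlib 3.10.9 under Python 3.11.15.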

Additional observations from a re-analysis of the deposited data

Results flagged for a closer look

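Among 20 sets of 4 scores, 2 held a kidney whose gap to its nearest neighbour, as a share of the range of the 4, was above the 95% critical value of Dixon's test, which flags about 1 set in 20 by chance. At Ythdf1 exon 5, control kidney 4 had a score of 360.87, with a gap of 0.912 of the range above the other 3 controls. At Ythdc1 exon 4, TG kidney 1 had a score of 2929.70 beside 3 kidneys at 3100, the value at which many scores of each list are held.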

How the results depend on the processing

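In IvC, the 2 loci called by presence became 1 with equal list lengths and 1 with scores at or above the median, with Ythdf1 exon 5 kept and Alkbh5 exon 2 lost, and the 2 genes with fewer peaks became 1 under each of these settings. The 4 loci called by percentile were also 4 with equal list lengths, but with Ythdc1 exon 16 in place of Alkbh5 exon 2, and became 2 (Ythdf2 exon 4 and Ythdc1 exon 4) when a peak was required in all 8 kidneys. In TvI, the 1 locus called by percentile became 0 with scores at or above the median, where Ythdf3 exon 5 kept a peak in 3 IG and 0 TG kidneys and a difference of -45.5 beside -49.1, and 0 when all 8 kidneys needed a peak. Leaving out each kidney gave 1 to 2 loci in TvI, with Ythdf2 exon 4 added without IG kidney 3 (difference -7.16) and Ythdc1 exon 5 without TG kidney 3. Groups that do not overlap stay apart when a kidney is removed. Counts of calls could therefore only stay or rise on leaving out a kidney, which is no check of them. With the replicate number as a block, 2 TvI loci differed in the same direction in every pair, Ythdf3 exon 5 and Ythdf2 exon 4, but 4 pairs allow no p under 0.125 in the exact sign-flip permutation test, so no call could pass. Same-numbered kidneys varied together little or not at all (correlations of -0.0298 to 0.0398 in IvC and -0.0418 to 0.10 in TvI, with 1 of 4 kidneys closest to its own number in each). The sample titles do not say what the numbers stand for, and whether they mark a shared batch or order was not tested. The other counts stayed within 1.5 times, with 15 loci by RefSeq exons and 16 on either strand. The share of loci with RRACH moved from 62.5% to 93.75% over all bases. Depth and RNA level are unknown, scores at 3100 cannot be ordered, and with 4 kidneys per group no p can go under 0.0286 before adjustment.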

Other observations

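Over the 12 kidneys, the loci of other genes whose score percentiles were most like those of Ythdf1 exon 5, of 9291 loci found in 4 or more kidneys, were on Amotl2 (chr9:102720081-102720876, Pearson r = 0.995), Fam81a (chr9:70099088-70099194, r = 0.994) and Rabgap1l (chr1:160342036-160342164, r = 0.993). These correlations are a description over 12 kidneys that share their groups. Amotl2 encodes an angiomotin family protein, and its peak had scores from 37.24 to 126.94 in 4 of 4 control kidneys and was in 0 of 4 IG and 0 of 4 TG kidneys. The Fam81a peak was likewise in 4 control kidneys only, with scores from 26.56 to 49.75. The Rabgap1l peak was in 4 control, 0 IG and 1 TG kidney.

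Kidneys numbered 3 in IG and TG stood low at several loci of these genes. IG kidney 3 had the lowest IG score at Ythdf2 exon 4 and at Ythdc1 exons 5 and 15 and no peak at Ythdc1 exon 1, although its list of 8357 peaks was the longest of its group. TG kidney 3 had the lowest TG score at Ythdf2 exon 4 and at Ythdc1 exons 1, 5, 15 and 16, no peak at Ythdf3 exon 5, and the shortest list, of 5901 peaks. They did not stand low everywhere. IG kidney 3 had the highest IG percentile at Ythdf3 exon 5 (87.4) and was not the lowest at Ythdc1 exon 16, and TG kidney 3 was 1 of 2 kidneys with a Ythdc2 peak and the only TG kidney with an Fto peak.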
